A study of Mus musculus with 4 samples.

Results

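The genes Nefh, Nefm, Nefl and Spp1 were followed through single-nucleus RNA libraries of the deep cerebellar nuclei of mice, through which the cerebellum sends its signals out. They are 4 of the 15632 genes in the deposited tables, taken by name as the neurofilament genes and Spp1 of projection neurons, and all 4 were present in every table. The series is about glutamatergic cells there and their part in satiation, by its title. All mice were C57BL/6J and carried Ai32, an allele that makes channelrhodopsin fused to EYFP once Cre has acted. Ucn3-Cre mice also carried the transgene Tg[Ucn3-cre]KF31Gsat/Mmucd, and vGluT2-Cre mice carried Tg(Slc17a6-icre)1Oki, whose driver gene encodes the glutamate transporter of these neurons. Ucn3-Cre replicate 1 is labelled female and 3 months old, and replicate 2 male and 3 months. vGluT2-Cre replicate 1 is labelled male and 2 months old, and replicate 2 female and 2.5 months. Nuclei of Ucn3-Cre replicate 1 were purified on an iodixanol gradient and those of the other 3 libraries on a sucrose cushion. The labels record no sorting of nuclei and do not say how many animals gave a library. Each line therefore gave 2 libraries, and the p-values below measure the spread between libraries unless another block is named or sub-clusters are compared. Among sub-clusters each library gives several sums, so the p-values there do not measure that spread alone.

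The tables held 4291 to 6587 nuclei and 9096357 to 19125488 counts per library, with medians of 1730 to 3206 counts per nucleus. A separate deposited table named 480 nuclei vglut2, of which 473 remained after doublet removal (87, 147, 158 and 81 in Ucn3-Cre replicates 1 and 2 and vGluT2-Cre replicates 1 and 2, the order used throughout). They are called glutamatergic here. Slc17a6, the vesicular glutamate transporter, stood at 217 ± 46 CPM in them (SD, n = 4), against 15.4 CPM in inhibitory nuclei, while the GABA-synthesis gene Gad2 stood at 20.6 CPM against 438 CPM. A value in CPM is the summed count of a gene in the nuclei of a class of 1 library per 1000000 counts of those nuclei. Clusters named by markers gave 663 inhibitory nuclear or Golgi neurons, 243 molecular layer interneurons, 11178 oligodendrocytes, 5027 astrocytes and smaller classes. A further 433 inhibitory nuclei were left unnamed by the naming rule and are called cluster 18. They held the glycine transporter gene Slc6a5 at 211 CPM, against 1.50 CPM in the inhibitory nuclear or Golgi neurons. Below, the inhibitory neurons compared with glutamatergic nuclei are the inhibitory nuclear or Golgi class. Molecular layer interneurons did not enter that comparison, and cluster 18 entered it only in an alternative setting. There were 41 barcodes present in more than 1 library, none of them glutamatergic.

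Neurofilaments are heteropolymers that fill large myelinated axons and set their calibre, and so how fast they conduct. Nefl encodes the light subunit on which filaments assemble. Nefm and Nefh encode the medium and heavy subunits, whose long phosphorylated tails extend from the filament. Spp1 encodes osteopontin, a secreted phosphoprotein that binds integrins and CD44. It is known both from large, fast-conducting neurons and from bone, fibroblasts and activated microglia. The large glutamatergic cells of the deep cerebellar nuclei send long myelinated axons to the thalamus and brainstem.

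Positions are from GENCODE vM21 (GRCm38, which is mm10, the build in the submitters' processing notes). Nefh lies on chromosome 11 from 4938754 to 4948064 on the minus strand. Spp1 lies on chromosome 5 from 104435118 to 104441050 on the plus strand. Nefm and Nefl are neighbours on chromosome 14. Nefl runs from 68083863 to 68089095 on the plus strand. Nefm is transcribed from the minus strand and has 2 annotated transcripts. The shorter runs from 68119283 to 68124846 and ends 30187 bases from Nefl, while the longer starts at 68082590 and spans the whole of Nefl. Whether counting used the strand is not given in the sources used here, so reads from Nefl and from the long Nefm model cannot be told apart with certainty.

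Of the 4 promoters, that of Spp1 was in the RefSeq table used here (build GRCm38.p6). Its 250 bases upstream of the first listed start, chr5:104434861-104435110 on the plus strand, are shown because Spp1 is the one member with an entry there, and its level differed among glutamatergic sub-clusters. Capitals mark matches to 3 core promoter motifs, searched on both strands. The TATA box was searched as TATAAA. Its variant spelling was searched as TTTAAA. The CCAAT box lies on the minus strand and reads ATTGG as printed.
Spp1: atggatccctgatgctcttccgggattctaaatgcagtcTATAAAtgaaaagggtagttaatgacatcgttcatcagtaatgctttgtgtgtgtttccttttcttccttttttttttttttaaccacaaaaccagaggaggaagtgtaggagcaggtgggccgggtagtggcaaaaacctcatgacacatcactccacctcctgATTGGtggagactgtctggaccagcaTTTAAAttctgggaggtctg
The TTTAAA match begins 20 bases before the start. The CCAAT match lies 46 bases before it. The TATAAA match lies 211 bases before it. Among 32851 promoter windows of the same length, the variant spelling was in 12.1%, the CCAAT box in 33.8% and the TATA box in 12.4%. These matches describe letters only.

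Relative to all counts of a class, Nefm and Spp1 were higher in glutamatergic nuclei than in inhibitory neurons, oligodendrocytes and astrocytes, whereas Nefh and Nefl were higher than in inhibitory neurons and did not pass the test as higher than in oligodendrocytes or astrocytes. Nefm reached 122, 296, 195 and 380.3 CPM in the glutamatergic nuclei of the 4 libraries. In inhibitory neurons it reached 18.4, 67.2, 41.4 and 86.9 CPM, so the 2 ranges did not overlap. In oligodendrocytes it reached 52.7, 211, 56.8 and 142 CPM, below the glutamatergic value in each library although the ranges over libraries overlap. Spp1 reached 136, 285, 139 and 287 CPM in glutamatergic nuclei. Its values in inhibitory neurons were 28.8, 88.8, 20.7 and 54.8 CPM, all below the lowest glutamatergic library. Its values in oligodendrocytes were 46.1, 208, 54.7 and 114 CPM, again below the glutamatergic value of the same library. Nefl, the assembly subunit, reached 35.4, 232, 103 and 178 CPM in glutamatergic nuclei against 63.9, 123, 68.4 and 96.6 CPM in inhibitory neurons, so it was higher in 3 of 4 libraries and lower in Ucn3-Cre replicate 1. In oligodendrocytes it reached 97.2, 271, 103 and 203 CPM, at or above the glutamatergic value in every library. Nefh, the heavy subunit, reached 26.3, 89.5, 47.1 and 91.2 CPM in glutamatergic nuclei and 10.6, 54.1, 23.4 and 38.3 CPM in inhibitory neurons, higher in 4 of 4. Its oligodendrocyte values of 33.4, 104, 37.0 and 72.8 CPM lay on both sides of the glutamatergic ones.

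**Figure D1:**
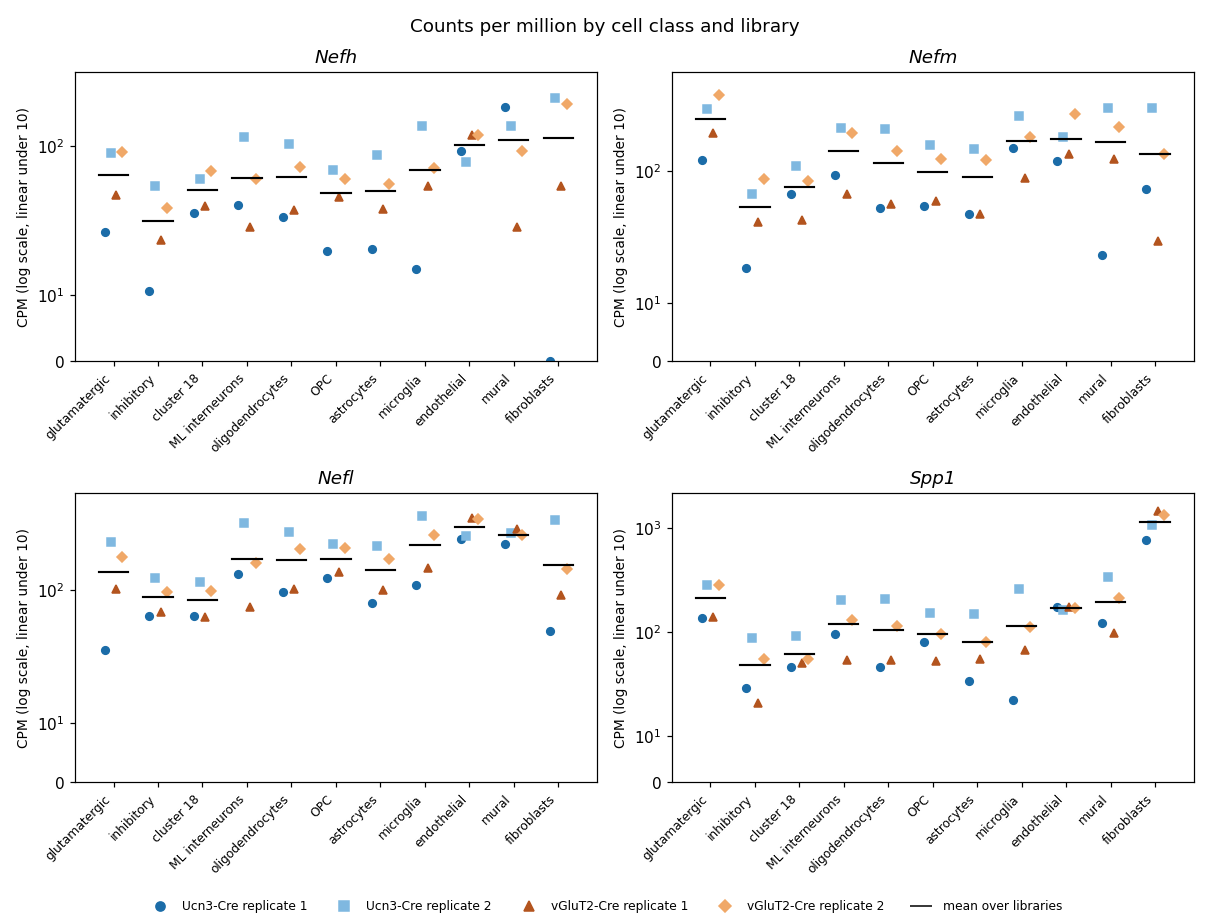
CPM of the 4 genes (y axis, logarithmic above 10 and linear below) by cell class (x axis), 1 point per library and a black line for the mean over libraries; ML, molecular layer; OPC, oligodendrocyte precursors. By their means, glutamatergic nuclei stand highest for Nefm, near the glia for Nefh, under oligodendrocytes and astrocytes for Nefl, and second to fibroblasts for Spp1.

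Against inhibitory neurons, all 4 genes rose in edgeR's quasi-likelihood test with the library as block and Benjamini-Hochberg adjustment over 10396 genes. The same test called 37.8% of all genes, 18.9% of them higher in glutamatergic nuclei. The log2 difference was 2.25 ± 0.11 for Nefm (SE, adjusted p = 6.23e-17, 4 libraries) and 2.24 ± 0.13 for Spp1 (adjusted p = 6.02e-15). It was 1.05 ± 0.15 for Nefh (adjusted p = 1.69e-06) and 0.73 ± 0.14 for Nefl (adjusted p = 7.14e-05). Without the library block, Nefm and Spp1 stayed past the threshold, while Nefh (adjusted p = 0.104) and Nefl (adjusted p = 0.287) did not. Molecular layer interneurons were outside this test. Their mean Nefl of 171 CPM was above the glutamatergic 137 CPM, and their mean Nefh of 60.8 CPM was near the glutamatergic 63.5 CPM. Their mean Nefm and Spp1 of 142 and 121 CPM were below the glutamatergic 248 and 212 CPM. The summed level of 7 oligodendrocyte markers also differed, with 144 CPM (85 to 217 over libraries) in glutamatergic and 422 CPM (335 to 557) in inhibitory nuclei and none at 0. Their part in the result was not tested.

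Against oligodendrocytes, Nefm rose by 1.08 ± 0.17 on the log2 scale (adjusted p = 1.64e-04) and Spp1 by 0.99 ± 0.15 (adjusted p = 1.43e-04), Nefl fell by 0.44 ± 0.16 (adjusted p = 0.0323), and the Nefh difference of -0.04 ± 0.13 did not pass (adjusted p = 0.769). That test called 71.7% of 11527 genes, 35.7% higher and 36% lower in glutamatergic nuclei. The calls of Nefm (adjusted p = 0.104) and Spp1 (adjusted p = 0.137) were lost without the library block, and that of Nefl also with DESeq2 (adjusted p = 0.0691). Against astrocytes, where 67.9% of 11567 genes were called, 33.4% higher and 34.5% lower, Nefm rose by 1.42 ± 0.13 (adjusted p = 7.02e-08) and Spp1 by 1.37 ± 0.14 (adjusted p = 2.38e-07). Nefh stood at 20.3, 86.8, 37.6 and 55.4 CPM in astrocytes, under the glutamatergic value in each library, but its difference of 0.28 ± 0.13 did not pass (adjusted p = 0.0713) and was called in 5 of the alternative settings. Nefl did not pass either (-0.15 ± 0.14, adjusted p = 0.341).

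The level in CPM sets a gene against all counts of the nucleus, and of the named classes glutamatergic nuclei had the most counts. Their median total was 6900, 9707, 9213 and 15502 counts, against 1512, 1725, 2087 and 2878 counts in oligodendrocytes. Counted per nucleus, all 4 genes were higher in glutamatergic nuclei than in oligodendrocytes in every library. Nefm gave 0.99, 3.02, 2.08 and 6.29 counts per glutamatergic nucleus against 0.09, 0.40, 0.13 and 0.45 per oligodendrocyte. Spp1 gave 1.11, 2.91, 1.48 and 4.75 against 0.08, 0.39, 0.12 and 0.36. Nefl gave 0.29, 2.36, 1.09 and 2.95 against 0.16, 0.51, 0.23 and 0.64, and Nefh gave 0.21, 0.91, 0.50 and 1.51 against 0.06, 0.20, 0.08 and 0.23. In Ucn3-Cre replicate 1 the glutamatergic Nefl and Nefh counts lay under those of endothelial nuclei (0.75 and 0.29). With sums scaled by the number of nuclei, the log2 difference from oligodendrocytes was 3.56 for Nefm, 3.48 for Spp1, 2.44 for Nefh and 2.03 for Nefl. The median of all genes itself moved to 2.44 on that scale, so Nefm and Spp1 exceeded it by about the size of their differences in CPM, Nefh stood at it and Nefl below it.

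**Figure D2:**
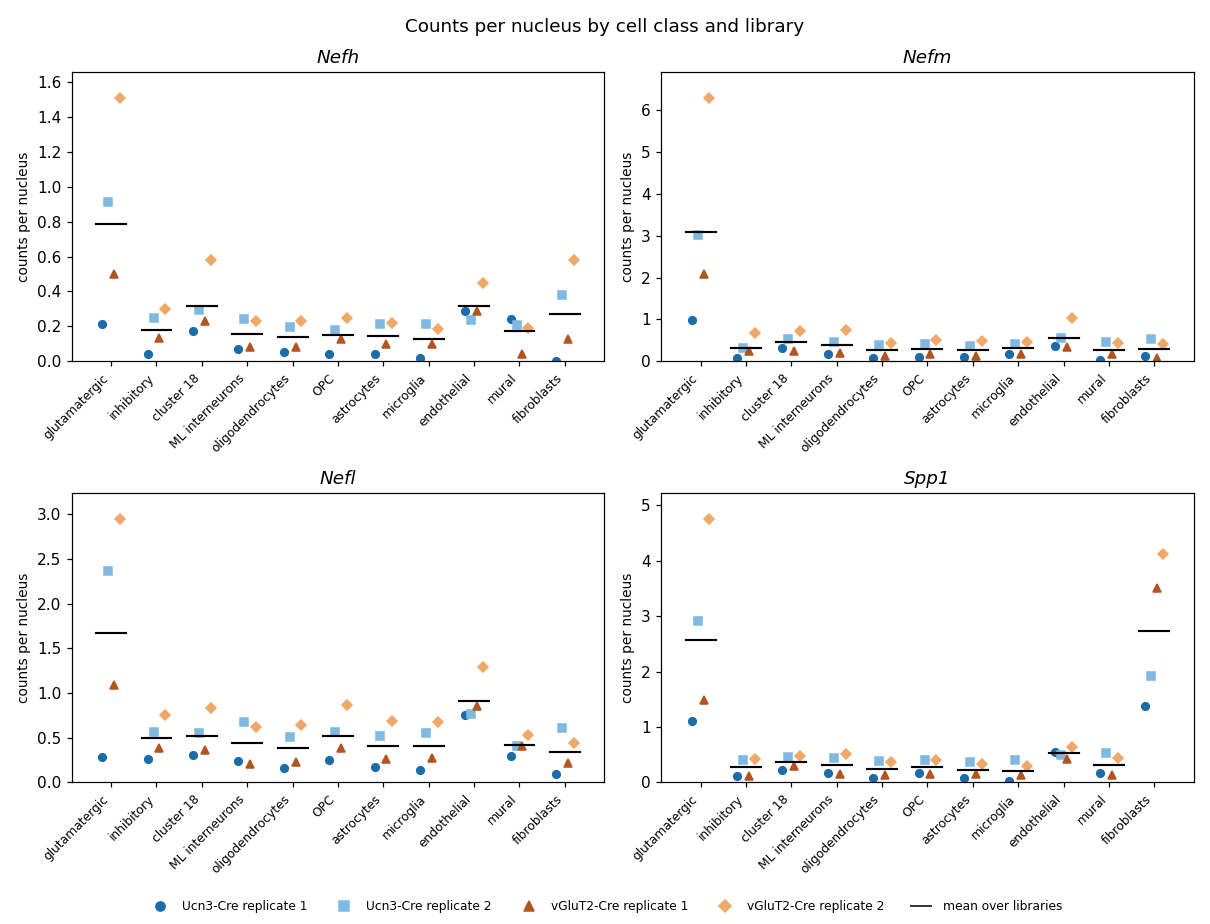
Mean counts per nucleus of the 4 genes (y axis, linear from 0) by cell class (x axis), 1 point per library and a black line for the mean over libraries. Glutamatergic Nefm spans 0.99 to 6.29 counts per nucleus, and in both replicates 2 all 4 genes exceed their glial values.

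Detection was compared at a common depth, with the values of every nucleus rounded up to whole counts and thinned to 1000 counts. The deposited values lie under whole counts, for Nefm and Spp1 by a larger part in oligodendrocytes than in glutamatergic nuclei of the same library. Rounding up removes the part of that difference that is under a whole count, which the CPM keeps. A loss of a whole count or more stays in both measures. Nefm was then detected in 12.3%, 22.7%, 14.4% and 26.5% of glutamatergic nuclei, against 8.21%, 22.7%, 7.32% and 15.6% of oligodendrocytes. Spp1 was detected in 11.3%, 20.2%, 9.88% and 19.7% against 7.35%, 22.2%, 6.64% and 12.7%. Thus both shares were above those of oligodendrocytes in 3 libraries, and in Ucn3-Cre replicate 2 neither was. Nefl was detected in 5.87%, 19.4%, 10.9% and 16.3% of glutamatergic nuclei, below the 13.4%, 28.1%, 11.96% and 20.8% of oligodendrocytes in each library. Nefh was detected in 3.96%, 9.10%, 4.31% and 7.72% against 4.91%, 11.2%, 4.36% and 7.96%. Oligodendrocytes should lack neurofilaments, so shares at or below theirs are not read as detection above background. That applies to Nefl and Nefh in each library, and to Nefm and Spp1 in Ucn3-Cre replicate 2, and no order is read from shares that go against the CPM. The source of these counts was not tested. Unthinned, the mean shares over libraries in glutamatergic nuclei were 71.4% for Nefm, 61.1% for Nefl, 57.3% for Spp1 and 46.8% for Nefh, against 26.4%, 35.0%, 23.9% and 14.6% in oligodendrocytes.

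The glial level of each gene differed between libraries. In oligodendrocytes, astrocytes and microglia alike, Ucn3-Cre replicate 2 and vGluT2-Cre replicate 2 were above the other library of their line for all 4 genes. The names of the nuclei in the tables carry the same tag in these 2 libraries and different tags in the other 2, and what the tag stands for is not given in the sources used here. Over all nuclei of a library, Nefl stood at 93.9, 238, 101 and 192 CPM, and Nefm at 61.8, 192, 71.0 and 158 CPM. Glutamatergic nuclei held 8.10%, 9.87%, 10.8% and 7.28% of all counts. They held 16.0%, 15.2%, 29.5% and 17.5% of Nefm counts and 18.2%, 14.8%, 22.0% and 17.2% of Spp1 counts. Of Nefl counts they held only 3.06%, 9.60%, 10.9% and 6.76%, about or under their part of all counts, and of Nefh counts 6.83%, 9.56%, 13.2% and 9.44%. Most counts of each gene were thus in nuclei of other classes.

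The deposited values had already been lowered from whole counts, and the original counts are not given. Set against the same values rounded up, a smaller part remained for the 4 genes than for all genes together. A loss of a whole count or more is missed by this measure, so the shares are upper bounds. In oligodendrocytes, 57.5% to 81.1% of the rounded-up counts of Nefm remained and 61.4% to 84.0% of those of Nefl, against 92.3% to 95.6% over all genes. In glutamatergic nuclei, 77.7% to 93.2% of Nefm and 83.1% to 92.3% of Spp1 remained, but 58.3% to 87.7% of Nefl and 56.4% to 85.4% of Nefh. With the values rounded up to whole counts, no call against inhibitory neurons changed.

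The ratio of Nefl to Nefm separated glutamatergic nuclei from the other classes plotted within each library. It compares classes and not the 2 genes, and was 0.29, 0.78, 0.53 and 0.47 in glutamatergic nuclei. Across oligodendrocytes, their precursors, astrocytes, microglia and endothelial nuclei the lowest ratio in each library was 0.72, 1.28, 1.65 and 1.26. The ratio in inhibitory neurons was 3.47, 1.83, 1.65 and 1.11. Every class other than glutamatergic therefore had the higher ratio in its own library among those plotted. The ratio of Nefh to Nefl was 0.74, 0.39, 0.46 and 0.51 in glutamatergic nuclei, above the glial and endothelial range in 3 libraries and inside it (0.31 to 0.40) in Ucn3-Cre replicate 2. This ratio did not set them apart from other neurons. In cluster 18 it was 0.56, 0.53, 0.63 and 0.70, and in inhibitory neurons 0.17, 0.44, 0.34 and 0.40. Spp1 to Nefm gave 1.12, 0.96, 0.71 and 0.76 in glutamatergic nuclei, inside the glial and endothelial range of the same library in 3 and under its lower end of 0.76 in vGluT2-Cre replicate 1. No test was made of these ratios.

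**Figure D3:**
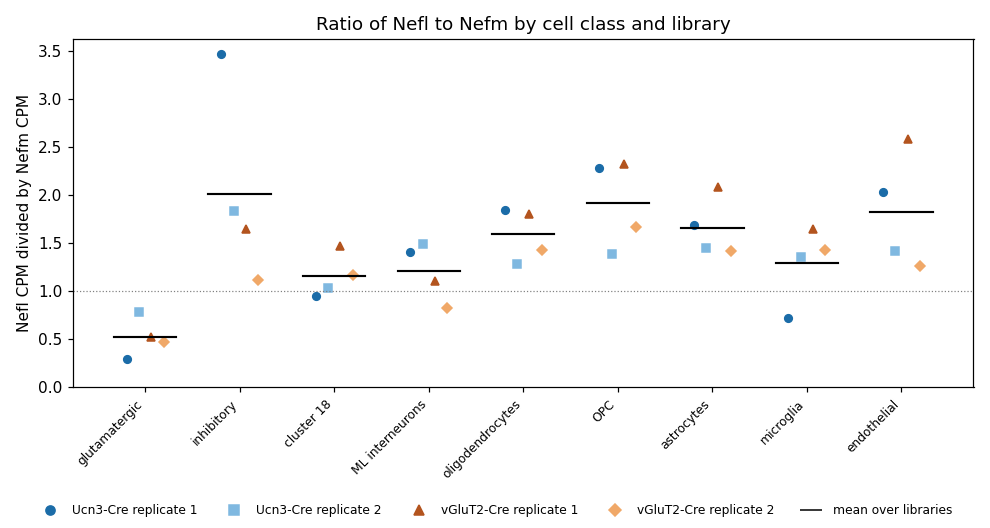
Ratio of Nefl to Nefm CPM (y axis) by cell class (x axis), 1 point per library, a black line for the mean over libraries and a dotted line at 1. The 4 glutamatergic points, 0.29 to 0.78, are each the lowest of their library, and mural cells and fibroblasts are left out for their few nuclei.

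Among non-neuronal classes, Spp1 was highest in 79 fibroblast nuclei, with 766, 1072, 1465 and 1357 CPM in the 4 libraries (17, 19, 22 and 21 nuclei). All 4 values lay above every glutamatergic one, and 64.7% to 81.0% of fibroblast nuclei had a count at a median depth of 1774 to 2964 counts. The 95% exact Clopper-Pearson intervals of those 2 shares ran from 38.3% to 85.8% and from 58.1% to 94.6%, for counting error only. Fibroblasts had too few nuclei for the tests. Microglia, in which Spp1 marks an activated state, stood at 22.1, 259, 67.4 and 112 CPM, the lowest of the glia in Ucn3-Cre replicate 1 and the highest in Ucn3-Cre replicate 2 and vGluT2-Cre replicate 1. Endothelial nuclei gave the most even Spp1 levels, 171 ± 5.0 CPM (SD, n = 4), and had the highest mean Nefl of all classes, 298 ± 57 CPM. Their Spp1 values of 174, 163, 174 and 172 CPM lay above the glutamatergic ones in replicate 1 of each line and below them in both replicates 2. Mural cells had a mean Spp1 of 195 CPM, from 98.1 to 342 CPM over libraries.

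Glutamatergic nuclei were divided into 8 sub-clusters, G1 to G8, without use of the 4 genes. All 4 genes differed among them in an F test over 30 sums of library and sub-cluster with the library as block (edgeR, adjusted p = 2.72e-06 for Nefh, 2.26e-08 for Nefm, 2.40e-06 for Nefl and 2.84e-12 for Spp1). The test called 23.2% of 4690 genes. The sub-clusters were made from the same nuclei, so these p-values are too small. Sub-cluster G2 (78 nuclei, led by Rbm20, Pdgfc, Maf and Crhr1) had the highest mean of each. Nefm reached 192, 546, 415 and 584 CPM there, and Spp1 reached 310.0, 471, 300.3 and 545 CPM. Nefl reached 90.9, 385, 192 and 281 CPM and Nefh 86.2, 175, 106 and 133 CPM. G2 was the highest sub-cluster in 4 of 4 libraries for Nefm, Nefl and Spp1, and in 3 for Nefh, where G7 led in vGluT2-Cre replicate 2. G2 also had the largest nuclei by counts, with a median of 13896, and Slc17a6 at 215 CPM with the GABA genes Gad1 and Slc32a1 at 3.43 and 3.26 CPM. Gad2 stood at 16.6 CPM there (6.74 to 43.5 over libraries). The 6 Purkinje cell markers summed to 161 CPM in G2 (126 to 191), the highest of the sub-clusters, with 3 of them at 0 in every library.

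The lowest sub-cluster depended on the gene. G5 (49 nuclei, led by Lmx1a, a transcription factor of the rhombic lip lineage) was lowest for Nefm at 106 ± 38 CPM and for Spp1 at 52.0 ± 54.8 CPM (SD, n = 4). Spp1 in G5 was 13.3, 48.8, 15.4 and 131 CPM, each below G2 of the same library. G6 (42 nuclei, led by Cpne4) was lowest for Nefl at 53.6 ± 38.6 CPM. G8 (28 nuclei in the 3 libraries with at least 5) was lowest for Nefh at 15.0 ± 13.7 CPM. That mean rests on 5.40 summed counts and ran from 0 to 27.0 CPM. Nefh in G8 was below G5 in 2 of 3 libraries. G1 and G3, with medians of 11766 and 12712 counts per nucleus, lay between, with Spp1 at 185 ± 89 and 234 ± 123 CPM and Nefm at 249.2 ± 105 and 207 ± 128 CPM. In the order of means for each gene, the ranges over libraries of all neighbouring sub-clusters overlapped. Without the library block the Nefl call was lost (adjusted p = 0.109).

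**Figure D4:**
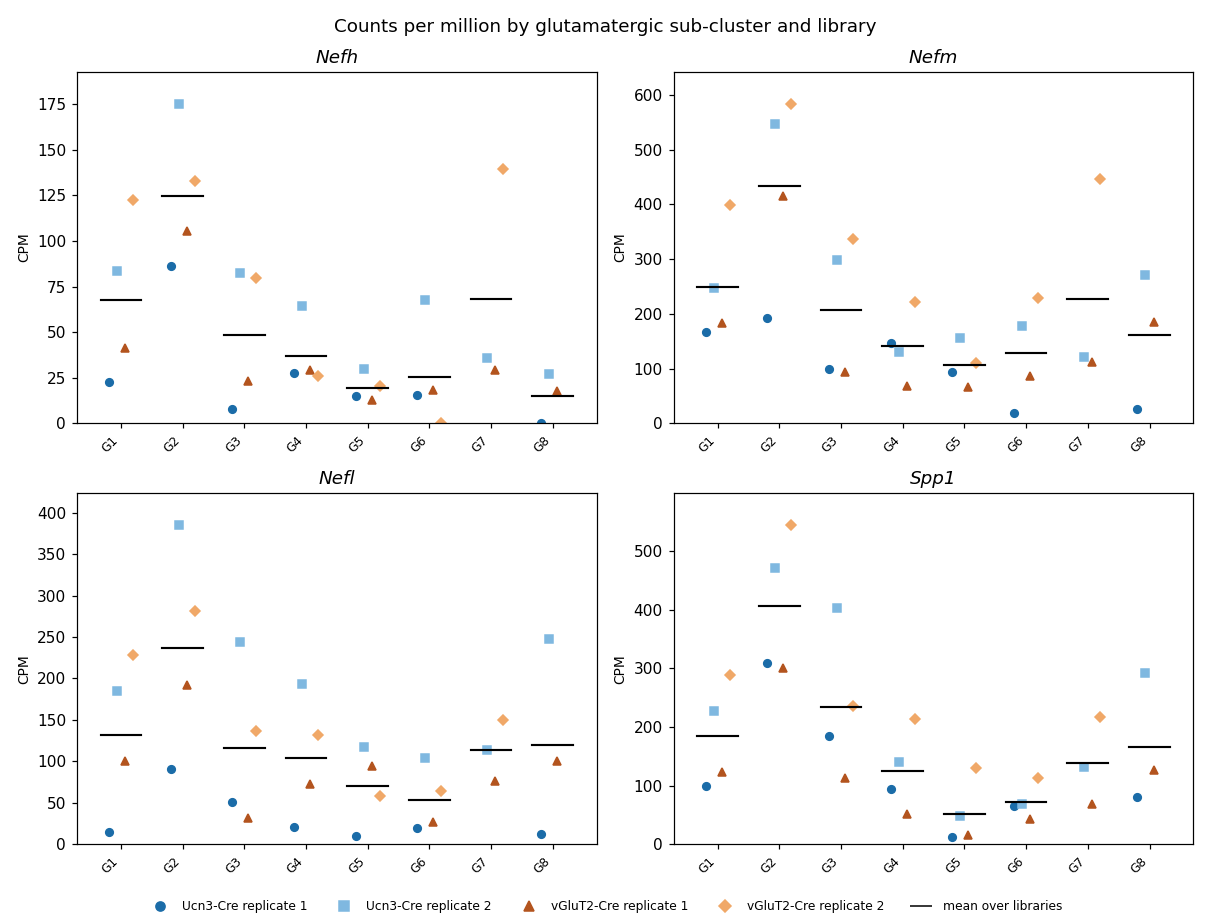
CPM of the 4 genes (y axis, linear from 0) by glutamatergic sub-cluster (x axis), 1 point per library with at least 5 nuclei and a black line for the mean over those libraries. G2 has the highest mean for each gene, with Nefm from 192 to 584 CPM, and the libraries spread as widely as neighbouring sub-clusters differ.

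A pair of sub-clusters carried markers of other neurons. G7 held Slc6a5, the glycine transporter, at 184 CPM, and Slc32a1, the vesicular transporter of GABA and glycine, at 142 CPM. G8 held the granule cell gene Gabra6 at 88.5 CPM. G7 nonetheless had Nefm at 122, 113 and 446 CPM in its 3 libraries, and G8 had Spp1 at 80.8, 292 and 126 CPM. With G7 and G8 left out, all 4 genes were still called among the remaining sub-clusters. 

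Inhibitory neurons and molecular layer interneurons were divided into I1 to I9. Nefm (adjusted p = 1.71e-03), Nefl (8.41e-04) and Spp1 (2.03e-04) differed among them in the edgeR F test, which called 43.5% of 3927 genes, and Nefh did not pass the filter on low counts. Here too the sub-clusters came from the same nuclei, so the p-values are too small. The interneuron sub-clusters I5, I6 and I7 had the highest mean Nefm, at 165 ± 61, 112 ± 103 and 156 ± 75 CPM (SD, n = 4, and 3 for I7). I6 ran from 0 to 220 CPM over libraries, and I7 had the highest mean per nucleus, 0.69 counts. Oligodendrocytes stood at 116 ± 76 CPM for Nefm. Nefm in I5 was 180.5, 208, 74.9 and 195 CPM, and Spp1 in I6 was 141.5, 215, 42.7 and 210 CPM. Among the inhibitory nuclear or Golgi sub-clusters, I2 had Nefm at 17.5, 49.3, 38.2 and 79.6 CPM and I3 at 26.1, 77.1, 15.2 and 74.1 CPM. I5 and I6 had the fewest counts per nucleus (medians of 2090 and 2094), and per nucleus Nefm in I5 gave 0.28, 0.39, 0.18 and 0.61 counts against 0.06, 0.24, 0.27 and 0.82 in I1, higher in 2 libraries and lower in 2. Without Ucn3-Cre replicate 2, the calls of Nefm (adjusted p = 0.0906) and Nefl (adjusted p = 0.0689) were lost, and that of Nefm also without the library block (adjusted p = 0.133). Cluster 18 stood at 67.0, 110.3, 43.0 and 83.7 CPM for Nefm and 46.6, 92.5, 50.8 and 55.4 CPM for Spp1. It stood at 35.5, 60.3, 39.6 and 68.0 CPM for Nefh and 63.4, 114, 63.0 and 97.6 CPM for Nefl. In Ucn3-Cre replicate 1 these Nefh and Nefl values were above the glutamatergic ones (26.3 and 35.4 CPM), and in the other libraries below them. Nefm there was above the value of inhibitory neurons in 3 libraries, and Spp1 was above it in 4.

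Within the glutamatergic class, the 4 genes had higher CPM in nuclei with more counts. Nuclei of each library were split by total count into 3 groups of equal size, with medians of 4381 to 8741 counts in the low group and 11913 to 25942 in the high group. Spp1 rose from 85.7, 78.9, 43.4 and 57.0 CPM in the low group to 176, 412, 221 and 384 CPM in the high group. Nefm rose from 83.9, 147, 88.3 and 169.6 CPM to 140.3, 399, 294 and 509 CPM, and Nefh from 17.4, 67.7, 22.1 and 31.7 CPM to 31.4, 105, 68.5 and 136 CPM. All 3 were higher in the high group in each library. Nefl went from 63.7, 155, 103 and 139.9 CPM to 26.6, 287, 125 and 214 CPM, higher in 3 libraries and lower in Ucn3-Cre replicate 1.

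The log2 difference of the high from the low group was 2.40 ± 0.21 for Spp1 (SE, adjusted p = 4.11e-10), 1.62 ± 0.16 for Nefm (1.02e-08), 1.42 ± 0.26 for Nefh (1.25e-04) and 0.64 ± 0.20 for Nefl (0.0177) in edgeR with the library as block. It called 22.1% of 6361 genes, 11.2% higher. The Nefl call was lost with DESeq2 (adjusted p = 0.490), without Ucn3-Cre replicate 2 (0.311), without vGluT2-Cre replicate 2 (0.0906), with values rounded up (0.165), in the largest sub-cluster alone (0.703) and without the block (0.397). G2 made up 31.6% of the high group and 3.18% of the low. Each sub-cluster was also split at its own median, in edgeR with library by sub-cluster as block (50 sums). Sub-clusters of the same library enter that fit as separate pairs, so its p-values do not measure the spread between libraries alone. The difference there was 0.78 ± 0.21 for Spp1 (adjusted p = 8.25e-03) and 0.59 ± 0.15 for Nefm (4.93e-03). That for Nefl was 0.12 ± 0.16 (0.693) and Nefh did not pass the filter. Splitting the class at its median without regard to sub-cluster gave 1.83 for Spp1, 1.33 for Nefm and 0.61 for Nefl. Markers of oligodendrocytes ran the other way, with 252 CPM (205 to 298 over libraries) in the low and 107 CPM (41 to 172) in the high group over 7 genes, none of them at 0. The 7 markers of inhibitory neurons stood at 237 CPM (186 to 335) in the low and 69.8 CPM (46.4 to 111) in the high group, where 1 of them was at 0. Their part in the result was not tested.

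**Figure D5:**
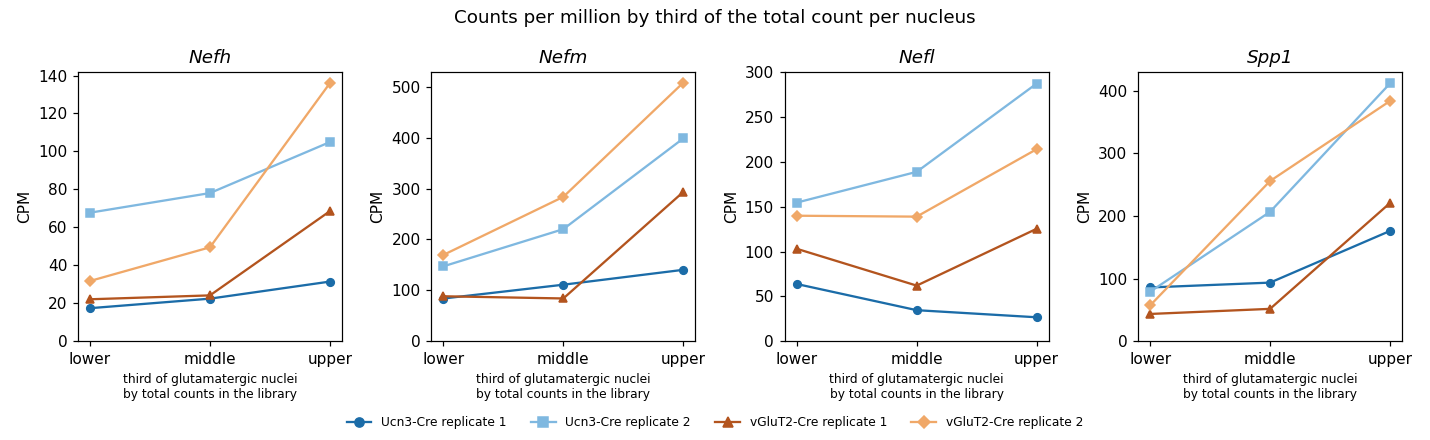
CPM of the 4 genes (y axis, linear from 0) in the low, middle and high group of glutamatergic nuclei by total count (x axis, equal groups per library), 1 line per library. Lines end higher than they start for Nefh, Nefm and Spp1 in all 4 libraries, and for Nefl in 3.

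Single nuclei differed widely. The 47 nuclei with the most counts of a gene, about 10% of 473, held 48.2% of all Nefm counts, 50.7% of Spp1, 51.9% of Nefl and 56.7% of Nefh. All 3 neurofilament genes were counted in 146 nuclei (30.9%), 2 of them in 144, 1 in 125 and none in 58 (12.3%). Across the nuclei of a library, the rank correlation of Nefm with the total count was 0.38, 0.71, 0.55 and 0.80, and that of Nefl was 0.11, 0.49, 0.27 and 0.52. Nefm and Spp1, as CPM, had rank correlations of 0.23, 0.49, 0.50 and 0.65 across nuclei, which share library and depth.

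The genes whose levels ran most like each member were ranked by Pearson r of log2 CPM over 63 sums of library and neuronal sub-cluster among 7941 genes. Among the genes nearest to Spp1 were Sparcl1 (r = 0.73), Thrb, Nefm and Kcna1. Nefm was nearest to Slc25a33 (r = 0.74), Wnk2, 1110008P14Rik, Spp1 and Sept1. Nefl was nearest to Got1 (r = 0.73), Pgam1, Spp1, Cend1 and Actg1, and Nefh to Nefl (r = 0.66), Cend1, Neu1, Ubac1 and Zfp386. Nefm and Nefl, the 2 neighbours on the chromosome, had r = 0.54. These sums share libraries and depth.

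Other genes of the same pathways moved in both directions against inhibitory neurons, in the test that called 18.9% of all genes higher and 18.9% lower. Counts near those shares are no result about a list. Of 24 partners of neurofilaments and axonal cytoskeleton genes tested, 8 rose and 4 fell, with a median log2 difference of -0.02, as over all genes. Ina, the alpha-internexin that joins the subunits in central neurons, rose by 0.45 ± 0.11 to 110 ± 41 CPM, while the growth-associated gene Gap43 fell by 1.15 ± 0.12. Of 14 kinases, phosphatases and turnover genes, 2 rose, among them the calpain Capn2 (0.74 ± 0.12), and 2 fell. Of 13 genes of the axon initial segment and node, 8 rose and 2 fell, with a median of 0.37. Scn4b rose by 2.13 ± 0.23 and Scn8a, the sodium channel of mature nodes, by 1.02 ± 0.08, but the anchor Ank3 fell by 0.91 ± 0.06. Of 16 genes of large fast-firing projection neurons, 13 rose and none fell, with a median of 1.02. That holds against the inhibitory nuclear or Golgi class only. Pvalb of this list, named after its values were seen, stood at 114 CPM in glutamatergic nuclei. It stood at 237 CPM in cluster 18 and 290 CPM in molecular layer interneurons. Syt2, a fast calcium sensor of release, stood at 350 ± 59 against 20.6 ± 12 CPM, Kcna1 at 227 ± 89 against 39.5 ± 8.9 CPM, and Acan, of perineuronal nets, at 23.2 ± 6.2 against 1.73 ± 0.51 CPM. Of 3 glial and other intermediate filament genes tested, Lmna fell by 0.67 ± 0.24.

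Receptors of osteopontin differed in both directions. Of 6 tested against oligodendrocytes, 2 were higher in glutamatergic nuclei and 4 lower, beside 35.7% and 36% of all genes. The integrin Itga5 was higher, at 15.3 ± 4.3 against 1.56 ± 1.53 CPM, as was Itgb1, named after its values were seen, at 85.2 ± 11.97 against 58.7 ± 5.7 CPM. Itgav stood at 15.7 ± 3.0 CPM in glutamatergic nuclei, 262 ± 28 in oligodendrocytes and 154 ± 17 in astrocytes, and Itgb8 at 3.66 ± 2.54, 132 ± 16 and 351 ± 45. Fam20c, the kinase that phosphorylates secreted proteins such as osteopontin, stood at 30.1 ± 4.7 CPM in glutamatergic and 62.3 ± 10.2 CPM in inhibitory neurons and fell by 1.01 ± 0.15. Among nuclei with high against low counts, 5 of 14 genes of fast-firing neurons tested rose and none fell, beside 11.2% and 10.9% of all genes, with Kcna1 at 1.62 ± 0.17 and Syt2 at 1.53 ± 0.15, close to the sizes seen for Nefm and Nefh.

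The line did not give a detectable difference in the 4 genes within glutamatergic nuclei. No gene of 10875 was called between Ucn3-Cre and vGluT2-Cre libraries (0%, with 275 at an unadjusted p under 0.05, and 6 called by DESeq2). The log2 differences of Ucn3-Cre from vGluT2-Cre were -0.40 ± 0.50 for Nefm, -0.10 ± 0.57 for Nefh, 0.04 ± 0.74 for Nefl and 0.05 ± 0.48 for Spp1 (SE, adjusted p = 1.00 for each, edgeR). On simulated counts of this comparison over 10557 genes, 6.19% of 2-fold and 80.4% of 4-fold changes were recovered, so changes of 2-fold were mostly not detectable. The simulation gave every gene the same dispersion. These shares are therefore not rates for the 4 genes, whose levels differed widely between libraries, and 4-fold changes in them may also be missed. Females and males did not differ in these genes either (adjusted p = 1.00, with 0.0092% of genes called), with differences from -0.54 ± 0.71 for Nefl to 0.10 ± 0.52 for Nefm. The difference between glutamatergic and inhibitory neurons did not differ between the lines in an interaction test (adjusted p = 0.987 for Spp1 and 1.00 for the others). The 2 libraries of a line differed more than the lines did, as Nefl at 35.4 and 232 CPM in Ucn3-Cre shows.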

How the data were processed

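Nuclei of 4 mouse libraries were captured on a 10x Genomics platform, per the labels' protocols. Cell Ranger 3.1.0, Seurat 3.2 and mm10 are named in the submitters' processing notes. The values the authors deposited are expected counts: 97.2% to 98.8% of those above 0 lie within 0.5 below a whole number, and the step that lowered them is not given in the sources used here. Doublets were scored with Scrublet in scanpy 1.11.5. Its automatic threshold marked 0.172% of nuclei, so the highest scores (0.8% per 1000 nuclei, 947 nuclei) were removed instead. Glutamatergic nuclei are those of the deposited vglut2 table, and the other classes are Leiden clusters (resolution 1) named by markers, formed without the 4 genes or the listed genes. Counts were summed per library and class (at least 20 nuclei) or sub-cluster (at least 5), rounded, filtered with filterByExpr, scaled by TMM and tested with edgeR 4.0.16 at an adjusted p of 0.05, with DESeq2 1.42.0 as an alternative. Classes and sub-clusters come from the same counts, so p-values between them are too small. The test was checked on simulated counts with 200 changed genes and the same dispersion for every gene. The 4 genes and all lists were chosen with earlier results of these data known. From each of the 8 lists, up to 4 called genes with the largest change in 1 direction in every library could be named, and 5 genes most like each member. Some genes these rules pick are not reported here. Shares were compared after rounding values up to whole counts and thinning to 1000 counts.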

Additional observations from a re-analysis of the deposited data

How the results depend on the processing

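Of the recomputed values of the 4 genes, 333 kept their direction and side of the threshold, 17 lost a call, 5 gained one (Nefh against astrocytes) and 27 changed sign, of which none was called both before and after except Nefl against oligodendrocytes. Counting per nucleus in place of CPM gave Nefh 2.44 and Nefl 2.03 against oligodendrocytes and Nefl 1.97 against astrocytes on the log2 scale, with the median of all genes at 2.44 and 2.08. The sign of Nefh against oligodendrocytes also changed with values rounded up (0.0086) and without G7 and G8 (0.037), and over left-out libraries it ran from -0.16 to 0.061. Between lines, leaving out 1 library moved Nefh from -1.30 to 0.50, Nefm from -1.19 to 0.21, Nefl from -1.93 to 0.75 and Spp1 from -0.60 to 0.71, Nefh became 0.029 with values rounded up and 0.019 without G7 and G8, and Nefl -0.039 with DESeq2. Between sexes the same left-out libraries gave Nefh -1.29 to 0.50, Nefm -0.96 to 0.66, Nefl -2.19 to 0.22 and Spp1 -0.60 to 0.72, and Nefm became -0.062 with the line as block. Counts of genes called against inhibitory neurons were 3929, but 2120 with DESeq2, 2263 without the library block and 9208 per nucleus. Between high and low total counts they were 1404, but 558 with DESeq2, 847 without the block, 99 in the largest sub-cluster alone, 229 within sub-clusters and 6048 per nucleus. Among glutamatergic sub-clusters they were 1090, but 1657 without the filter and 541 with a block of library by high or low total count, where all 4 genes stayed called. Between lines DESeq2 called 6 genes and not 0. Between sexes 1 gene was called, but 8 with DESeq2, 5 without the filter, 0 with only genes counted in every library, 0 with the line as block and 0 to 8 over left-out libraries. The cause of these changes was not tested. The replicate numbers are not stated to pair animals across lines, although the nuclei of both replicates 2 carry 1 tag whose meaning is not given. Deviations of equally numbered libraries correlated at 0.13 over 10875 genes, and with the replicate block 0 genes were called and Nefh stood at -0.26, Nefm at -0.46, Nefl at -0.27 and Spp1 at 0.02. The per-nucleus scale, the sub-cluster splits of depth, the changes of G7, G8, I8, I9 and cluster 18, and the block by total count were chosen after seeing the data. Nefh had the lowest median of the 4 genes, 0 counts per glutamatergic nucleus.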

Other observations

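A further 75 nuclei fell into the glutamatergic clusters but were not in the deposited vglut2 table, and they entered none of the comparisons above except the alternative by clusters. They held 14, 14, 34 and 13 nuclei of the 4 libraries and mixed markers, with Slc17a6 at 98.1 ± 40.0 CPM (SD, n = 4) and Gad2 at 214 ± 51 CPM. Nefm stood at 83.9, 384, 104 and 314 CPM in them, and Spp1 at 39.3, 179.9, 79.6 and 209 CPM. Spp1 was below the glutamatergic nuclei of the table in every library, and Nefm was below them in 3 of 4.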
